A study of Rattus norvegicus with 20 samples.

Results

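The stroke-prone spontaneously hypertensive rat (SHRSP) was compared with the normotensive Wistar-Kyoto rat (WKY) in mesenteric artery, a bed of small vessels that feeds the intestine. The comparison used 8 of the 20 arrays of the study, the 4 of SHRSP/Izm and the 4 of WKY/Izm rats that had no operation, chosen by the strain and treatment in the labels. All rats were labelled as 6 weeks old, and each array held Cy3-labelled total RNA of whole mesenteric artery from a sample that the labels call a biological replicate. The other 12 arrays serve here only to place the SHRSP values: 4 of SHR/Izm, the spontaneously hypertensive strain from which SHRSP was bred, 4 of WKY with a clipped renal artery and both kidneys (2K1C) and 4 of WKY with a clip and a single kidney (1K1C), the last 2 groups with 3 weeks of operation. SHRSP and WKY are inbred strains with different genomes, so what differs between them cannot be assigned here to the genome or to blood pressure. Sex and blood pressure are not given in the sources used here.

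Small mesenteric arteries consist of smooth muscle around a single layer of endothelium, in an adventitia that holds fibroblasts, sympathetic nerve endings and fat. Smooth muscle tone is set by angiotensin, endothelin and noradrenaline, by nitric oxide and prostanoids from the endothelium, and by potassium and calcium channels. In hypertensive animals such arteries are known for thickened walls and altered matrix. SHRSP develops severe hypertension and stroke with age.

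The groups compared lay on different slides. SHRSP shared slide 3 with SHR, untreated WKY shared slide 2 with 1K1C, and 2K1C lay on slide 1, and the strain in SHRSP against untreated WKY thus cannot be told apart from the slide. For this reason many genes are also set against SHR, which lay on the slide of SHRSP but in its other row, or against the 12 WKY arrays of 2 slides. The other genes are given against untreated WKY alone. A level is the log2 signal of a probe relative to the 75th percentile of its array, and a difference is the mean of the 4 SHRSP levels minus the mean of the 4 untreated WKY levels, with its SE. A gene was called where the adjusted p of limma, fitted over all 20 arrays with Benjamini-Hochberg adjustment, was under 0.05. The labels name no shared litter or day. Where nothing in them shows separate animals, the p-values measure only the spread between these samples. The number of arrays limits the precision, and genes with a single probe leave a change of RNA and an altered match of probe and strain sequence not to be told apart.

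Of 16414 genes tested, 393 were called between SHRSP and untreated WKY (2.39%), 189 higher (1.15%) and 204 lower (1.24%) in SHRSP. At an unadjusted p under 0.05 there were 2733 genes (16.7%). These shares over all tested genes are those to set beside the counts of the gene lists below. The median absolute difference of the called genes was 1.28, and 256 of them passed 2-fold, 110 higher and 146 lower. The 4 arrays of SHRSP and the 4 of untreated WKY did not overlap for 1856 of all tested genes (11.3%) and for 354 of the called ones. Without untreated WKY array 1 and SHRSP array 4, which stood apart in marker genes of other tissues, 255 genes were called. Leaving out single arrays gave from 172 genes (without untreated WKY array 3) to 910 (without untreated WKY array 4). The other counts were 320 and 220 without untreated WKY arrays 1 and 2, and 213, 213, 191 and 273 without SHRSP arrays 1 to 4. Against SHR on the same slide 59 genes were called (0.359%), 34 higher and 25 lower in SHRSP. The higher genes were 0.207% and the lower ones 0.152% of those tested, and 584 had an unadjusted p under 0.05 (3.56%). Quantile normalization turned that split into 24 and 27, and dividing each array by its median into 26 and 31.

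The probes below show what was read for 3 genes with large differences and for 3 genes with smaller ones. Each reads 60 bases. Positions come from the array's own design, on rat build rn4, and sequences run 5′ to 3′ as the files give them. The alpha-globin probe, on the minus strand of chr10:15559461-15559520, the soluble epoxide hydrolase probe, on the minus strand within chr15:45535737-45538220 and so across a splice junction, and the Gpr35 probe on the plus strand of chr9:92259098-92259157 are followed by the 3 with smaller or less stable differences. These are Zfp597 (plus strand, chr10:11926184-11926243), Nmnat1 (minus strand, chr5:166550146-166550205) and Pglyrp1 (plus strand, chr1:78240466-78240525).
Hba-a3: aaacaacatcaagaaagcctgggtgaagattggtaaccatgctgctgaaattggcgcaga
Ephx2: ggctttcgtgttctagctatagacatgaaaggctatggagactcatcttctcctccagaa
Gpr35: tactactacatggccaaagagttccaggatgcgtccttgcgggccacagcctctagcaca
Zfp597: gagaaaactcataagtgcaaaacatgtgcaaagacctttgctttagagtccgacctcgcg
Nmnat1: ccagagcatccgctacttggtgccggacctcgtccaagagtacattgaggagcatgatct
Pglyrp1: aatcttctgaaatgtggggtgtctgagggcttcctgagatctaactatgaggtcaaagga

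The genes in which SHRSP stood apart from every other group came first. For 71 of all tested genes (0.433%) the 4 SHRSP arrays lay outside the range of the 16 others. Of the 393 called genes 49 did so, 20 higher and 29 lower, and 32 of the 49 were also called against SHR. Hba-a3, which encodes an alpha chain of haemoglobin, had levels of -0.42, 0.81, 0.66 and -0.40 on the 4 untreated WKY arrays and -6.50, -7.71, -7.53 and -8.01 on the 4 SHRSP arrays. No SHRSP array had it well above background, which makes the signal at least 63.8-fold lower there (limma adjusted p = 1.11e-08). The mean level was -0.67 in SHR, -0.49 in 2K1C and 0.04 in 1K1C, so that SHRSP alone was low among the 5 groups. Alpha-globin genes are near-identical copies, and which copy the probe reads is uncertain. Of the erythroid list 9 of 9 measured members lay below 0, with a median of -0.68 and Hba-a3 as the called one. The list's mean level was 0.93 to 1.79 in untreated WKY, -1.06 to 0.55 in SHRSP and -0.16 to 0.87 in SHR. Hba-a3 is part of this mean, so the gap between WKY and SHRSP holds its own fall and is no separate sign. The abundant globin genes Hba-a1 and Hbb were at -0.38 ± 0.28 and -0.36 ± 0.29 and not called. The part of blood in the fall of Hba-a3 was not tested.

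Ephx2 encodes soluble epoxide hydrolase, the enzyme that breaks down epoxyeicosatrienoic acids, lipid mediators that relax vessels. Its levels were -1.45, -0.13, -0.25 and -1.01 in untreated WKY against -5.73, -5.43, -5.43 and -5.84 in SHRSP. The SHRSP probe signal was not well above background and at least 29.9-fold lower (adjusted p = 3.12e-06 in limma). The SHR mean of -1.27 lay within the range of the untreated WKY arrays, and SHRSP differed from it by -4.34 on the same slide (adjusted p = 2.67e-05).

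Agtrap encodes a protein that binds the type 1 angiotensin receptor and promotes its internalisation. Its levels were -0.34, 0.34, 0.23 and 0.27 in untreated WKY and -4.36, -4.64, -5.11 and -4.62 in SHRSP, a difference of -4.80 ± 0.15 (limma adjusted p = 1.41e-12). The 3 other groups were tight, with means of 0.10 in SHR, 0.06 in 2K1C and 0.09 in 1K1C. Samd14, a gene of a sterile alpha motif protein, was at least 5.57-fold lower in SHRSP. Its levels were -2.77, -3.69, -2.97 and -3.98 in untreated WKY and from -7.91 to -7.19 in SHRSP, and the SHR mean was -4.52. Micb, a major histocompatibility class I-related gene whose human counterpart is a ligand of natural killer cells, was at least 5.20-fold lower. The 4 WKY levels ran from -3.60 to -3.20, the 4 SHRSP levels from -7.36 to -6.05, and the SHR mean was -3.07.

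Among the genes with higher signal in SHRSP, Rgs11, a regulator that shortens G-protein signals, had levels of -4.41, -5.18, -3.86 and -4.84 in untreated WKY and -2.13, -2.20, -1.71 and -2.40 in SHRSP. The difference was 2.47 ± 0.37, and SHR stayed at a mean of -4.31. The zinc finger gene Zfp597 was higher by 2.21 ± 0.23, at -2.32 ± 0.14 (SD, n = 4) in SHRSP against -4.53 ± 0.52 in WKY and -5.14 in SHR. Slc35c2, a sugar nucleotide transporter gene of the Golgi, rose by 2.00 ± 0.22. The tRNA methyltransferase gene Mettl2 rose by 1.98 ± 0.20. Abca9, a lipid transporter of the ABC family, was not well above background on any untreated WKY or SHR array and was at least 2.18-fold higher in SHRSP. These 10 genes were called whichever of the 8 arrays was left out.

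**Figure D1:**
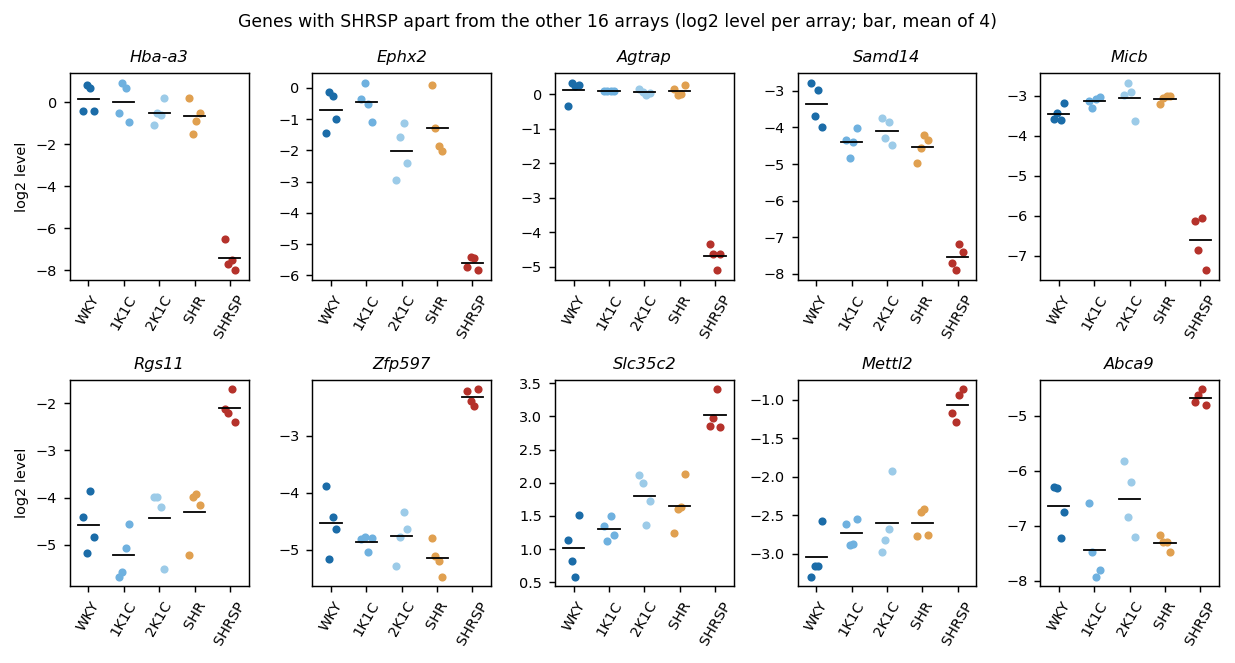
Log2 level per array (vertical axis, relative to the 75th percentile of the array) of 10 genes in the 5 groups, with a bar at each mean of 4 arrays. The 4 SHRSP points lie below all 16 others for Hba-a3, Ephx2, Agtrap, Samd14 and Micb and above them for Rgs11, Zfp597, Slc35c2, Mettl2 and Abca9.

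Of the 49 genes 44 had a position on rn4, and 18 of the 44 (40.9%) had another of the 49 within 1 Mb. The share over all 15549 placed genes that had 1 of the 49 so near was 5.07%. On chromosome 10 lay 12 of them, 0.965% of the genes tested there, and on chromosome 1 lay 8, or 0.414%, beside 0.299% of all tested genes. The next genes were chosen after their values were seen. Between bases 10459940 and 10997968 of chromosome 10, the elongation factor 2 methyltransferase gene Eef2kmt rose by 1.05 ± 0.17 and Nmral1, a gene of a redox-sensing protein, by 0.58 ± 0.12. In the same stretch Hmox2, which encodes the constitutive heme oxygenase, fell by 0.62 ± 0.12, and Dnaja3, a mitochondrial co-chaperone gene, by 0.84 ± 0.21. Eef2kmt ran from -3.04 to -2.60 in WKY and from -1.83 to -1.61 in SHRSP, and Hmox2 from 1.19 to 1.76 and from 0.72 to 0.86. Eef2kmt and Hmox2 thus moved in opposite directions. The other probe of Dnaja3 gave -0.20 ± 0.20, so its fall rests on a single probe. Nmral1 lost its call without untreated WKY array 2 or SHRSP arrays 2 or 3 (adjusted p up to 0.0664), and Dnaja3 was called only with all arrays or without untreated WKY array 4 (up to 0.161). Dnaja3 was also uncalled when arrays were scaled by their median, as was Opa3, described next.

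Further along chromosome 10, Rgs11 (chr10:15477716-15477775) and Hba-a3 lay close to each other, with the unnamed transcript ENSRNOT00000026536, at least 3.85-fold lower in SHRSP, before them. Sgca (chr10:83647348-83647407), which encodes alpha-sarcoglycan of the dystrophin complex, lay beside Samd14 (chr10:83709687-83709746). Sgca levels were -0.82, -0.05, -0.27 and -0.41 in untreated WKY and -1.91, -2.04, -2.17 and -2.67 in SHRSP, a fall of 1.81 ± 0.22 (limma adjusted p = 7.12e-05), with a mean of -0.52 in SHR. On chromosome 1, between bases 78216455 and 79540911, Micb lay with Pglyrp1, a gene of a peptidoglycan-binding protein of innate immunity, Opa3, a mitochondrial protein gene, and the zinc finger genes Zfp108 and Zfp61. Pglyrp1 fell by 0.71 ± 0.16, Opa3 by 0.57 ± 0.14, and Zfp108 was at least 2.04-fold lower, whereas Zfp61 rose by 0.89 ± 0.18. The unnamed transcript FQ212058 in this stretch had levels from -5.89 to -4.94 in WKY and from -1.13 to -0.39 in SHRSP, a difference of 4.94 ± 0.28, and its SHR mean was -4.86.

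The calls of Pglyrp1 and Opa3 were the weaker ones. Pglyrp1 lost its call without untreated WKY arrays 2 or 3 or SHRSP arrays 1, 2 or 3 (adjusted p up to 0.0975). Opa3 lost it without untreated WKY arrays 1, 2 or 3 or SHRSP arrays 1, 2 or 4 (up to 0.148), and Zfp61 without untreated WKY array 3 (0.0534). Nmnat1, a nuclear enzyme gene of NAD synthesis on the same chromosome as Agtrap (chr5:165154364-165154423), fell by 0.76 ± 0.16. Nmnat1 lost its call without untreated WKY arrays 2 or 3 or SHRSP array 2 (adjusted p up to 0.0717). Whether these places hold sequence that differs between the strains was not tested.

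Further members of the 49 lay on other chromosomes or farther away. Prps2, an enzyme gene of nucleotide synthesis, rose by 1.41 ± 0.22, from levels of 0.12 to 0.75 in WKY to 1.31 to 2.39 in SHRSP. Gatm, which catalyses an early step of creatine synthesis, fell by 2.03 ± 0.30. Its SHR mean of -3.79 was close to the SHRSP levels of -4.47 to -3.97, while WKY lay between -2.91 and -1.72. The lysophosphatidic acid receptor gene Lpar6 fell by 1.45 ± 0.33, a call that was lost without untreated WKY arrays 2 or 3 or SHRSP arrays 1, 2 or 3 (adjusted p up to 0.0898). Aspm, a mitotic spindle gene, rose by 1.21 ± 0.26, a call that was lost without untreated WKY arrays 2 or 3 or SHRSP arrays 1 or 2 (up to 0.0673). Cab39l fell by 0.64 ± 0.11, Cadps2, a vesicle release gene, by 0.83 ± 0.16, and the general transcription factor gene Gtf2e1 rose by 0.54 ± 0.10, with tight SHRSP arrays in all 3.

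A further set of genes differed from WKY with SHR beside SHRSP. Over all tested genes the 4 SHRSP arrays lay outside the range of the 12 WKY arrays for 317 (1.93%), and for 183 of the 393 called ones. Afp encodes alpha-fetoprotein, a plasma protein of fetal liver. Its levels were -7.87, -7.79, -8.03 and -8.14 in untreated WKY, where the probe was not well above background, and -1.64, -1.17, -1.35 and -2.33 in SHRSP. The signal was at least 18.2-fold higher (limma adjusted p = 2.33e-09), and SHR had a mean of -1.88 against -8.08 in 2K1C and -8.00 in 1K1C. Alb, the albumin gene, which lies next to Afp on chromosome 14 (Alb at 19126980-19127039, Afp at 19092583-19092642), rose by 2.40 ± 0.54. Alb levels were -0.24 to 0.81 in WKY, 2.24 to 3.36 in SHRSP, 2.63 on average in SHR and 1.72 in 1K1C. Alb lost its call without untreated WKY arrays 1, 2 or 3 or SHRSP arrays 1, 2 or 3 (adjusted p up to 0.0827).

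Gpr35, a G-protein-coupled receptor gene, was not well above background in untreated WKY, at -6.08, -7.36, -6.42 and -6.26, and ran from -3.67 to -3.30 in SHRSP, at least 5.21-fold higher. The SHR mean was -3.56. Cep295, a centrosome gene, rose by 2.39 ± 0.33 with an SHR mean of -3.26 beside the SHRSP mean of -2.98. Pip, a secreted protein gene, had levels of -7.70, -7.85, -7.72 and -6.85 in untreated WKY, not well above background, and -4.26, -4.19, -4.18 and -4.74 in SHRSP, at least 2.75-fold higher. Its SHR mean of -5.07 lay between the groups. These 4 genes, Afp included, were called whichever array was left out.

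On the lower side, Acot5, a peroxisomal acyl-CoA thioesterase gene, was at least 3.03-fold lower in SHRSP. Its WKY levels were -4.65, -4.19, -3.84 and -4.24, its SHRSP levels ran from -8.16 to -6.27, and the SHR mean was -8.06. C4bpa, a regulator of complement, fell by 3.46 ± 0.67, with 2 of 4 SHRSP arrays and 1 of 4 SHR arrays well above background. Frmd3 fell by 3.31 ± 0.54 and the secretin receptor gene Sctr was at least 3.62-fold lower. The 2K1C group was low in several of these genes, with means of -4.97 in Frmd3, -6.23 in Sctr and -5.38 in Acot5. The 1K1C means were -4.28 in Sctr and -3.21 in Acot5, beside -3.98 and -4.23 in untreated WKY. Wwc1, a scaffold of the Hippo pathway, fell by 2.75 ± 0.50, and Clip4, a microtubule-binding protein gene, was at least 3.96-fold lower. The 2K1C means were -5.46 in Wwc1 and -5.66 in Clip4, below the SHR means of -4.78 and -5.41. Of the 6 genes only C4bpa had its 4 SHRSP arrays outside the range of the 12 WKY arrays. All 6 were called whichever array was left out.

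**Figure D2:**
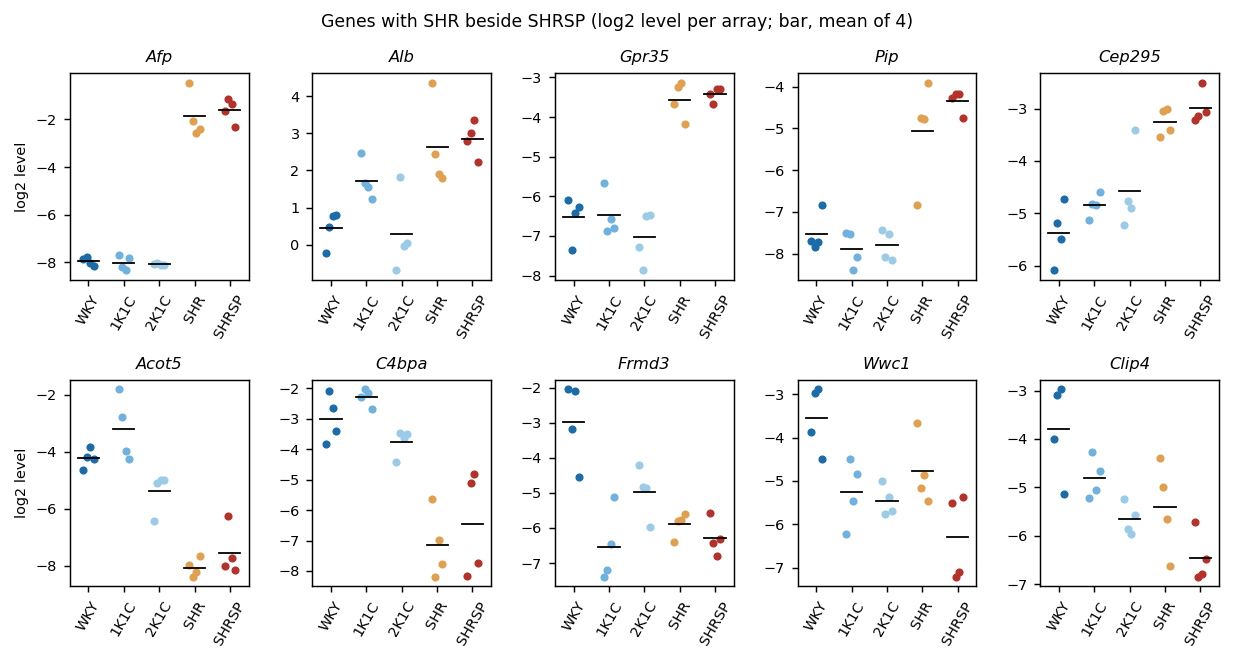
Log2 level per array (vertical axis) of 10 genes in the 5 groups, with a bar at each mean of 4 arrays. The SHR mean lies near that of SHRSP and away from untreated WKY for Afp, Alb, Gpr35, Cep295, Acot5, C4bpa and Frmd3, and between both for Pip, Wwc1 and Clip4.

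The largest difference of all was in transcripts with no symbol, chosen after their values were seen. RGD1311103 (chr8:83342357-83342416) had WKY levels between -8.20 and -7.84, not well above background, and SHRSP levels of 0.44, 0.18, 0.31 and -0.04, at least 65.2-fold higher. ENSRNOT00000030609, whose probe lies beside it at chr8:83342483-83342540, was at least 21-fold higher. LOC502684 was at least 10.9-fold higher, and LOC360919, near Afp on chromosome 14, at least 9.24-fold lower. SHR lay near SHRSP in all 4, at means of -0.38, -2.04, -2.45 and -5.68. These 4 were called whichever array was left out.

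Most called genes had 1 detected probe. For 61 of them there were 69 further probes, of which 62 gave the same sign and 48 at least 0.5 times the difference (46 had the same sign and an unadjusted p under 0.05). Zfp14, 1 of the 49 genes with SHRSP outside the 16 other arrays, had probes of opposite sign. Its brighter probe gave -0.94 ± 0.16 and its other probe 0.91 ± 0.17, so its direction is not settled. The tight junction gene Cldn19 had differences of 4.48 ± 1.01 and 2.37 ± 0.43 on its 2 probes. Cldn19 ran from -6.84 to -2.02 in WKY and from -0.69 to 1.02 in SHRSP. It lost its call without untreated WKY arrays 2 or 3 or SHRSP arrays 1, 2 or 3 (adjusted p up to 0.105).

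In the renin-angiotensin system, 19 of 23 listed genes were measured, and 8 differences were above 0 against 50.5% of all tested genes. Agtrap was the sole member called. Of the substrate and enzymes, angiotensinogen (Agt) had a difference of -0.23 ± 0.43, the converting enzyme Ace 0.35 ± 0.30 and mast cell chymase (Cma1) -1.12 ± 0.63. The type 1 receptor gene Agtr1a had levels of 0.99, 0.58, 0.19 and 0.16 in WKY and -0.21, 0.24, -0.27 and -0.24 in SHRSP. Its difference of -0.60 ± 0.24 did not pass (limma adjusted p = 0.218), and neither did Agtr1b at 0.72 ± 0.55 or the angiotensin-(1-7) receptor gene Mas1 at 0.85 ± 0.87. The peptidases and the renin receptor had differences between -0.54 and 0.21: Mme -0.54 ± 0.50, Anpep -0.50 ± 0.25, Atp6ap2 -0.35 ± 0.22, Prcp -0.28 ± 0.25, Thop1 -0.21 ± 0.14, Ctsd -0.08 ± 0.32, Lnpep 0.17 ± 0.18, Ctsa 0.18 ± 0.15 and Enpep 0.21 ± 0.52. The bradykinin receptor gene Bdkrb2 was at 0.25 ± 0.19. The median over the 19 was -0.21, beside 0.0036 over all genes.

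Of the enzymes and receptors of eicosanoids, 30 of 35 were measured, and Ephx2 was the sole member called. Ptgs2, the inducible cyclooxygenase, was not well above background on any untreated WKY array and was so on all 4 SHRSP arrays. Its levels were -6.96 to -5.45 against -4.36 to -2.59, and its adjusted p of 0.0558 missed the threshold. Prostacyclin synthase (Ptgis) had a difference of 1.89 ± 0.68, the thromboxane receptor Tbxa2r 1.09 ± 0.38 and the prostaglandin-degrading Hpgd -1.35 ± 0.52, none of them called. The 30 differences had a median of 0.12. Endothelin genes gave 0 calls among 4 measured, 0 of them at an unadjusted p under 0.05 in limma, with Edn1 at -0.18 ± 0.32 and Ednra at 0.72 ± 0.41. Of 13 nitric oxide and natriuretic peptide genes 0 were called and 4 had an unadjusted p under 0.05 in limma, among them Nos3 at 0.81 ± 0.33, Pde5a at 1.11 ± 0.51 and Prkg1 at 0.92 ± 0.42.

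Immediate early genes, which are switched on within minutes by growth factors, stretch or handling of tissue, lay above WKY for 23 of 24 measured members. Their median difference was 0.78, 2 were called and 14 had an unadjusted p under 0.05, beside 16.7% of all genes. Btg2, an antiproliferative gene, had levels of 0.11, 0.36, 0.03 and 0.62 in untreated WKY and 1.77, 2.23, 2.91 and 1.86 in SHRSP, a rise of 1.91 ± 0.27 (limma adjusted p = 0.000517). Zfp36, which destabilises cytokine mRNAs, rose by 1.38 ± 0.34, from -6.65 to -5.36 in WKY to -5.00 to -4.33 in SHRSP, and was called only with all arrays or without untreated WKY array 4 (adjusted p up to 0.137). Atf3 had the largest difference, 3.04 ± 0.79, and an adjusted p of 0.052 that missed the threshold. Fos was at 2.35 ± 0.92, Egr1 at 1.85 ± 0.52, Dusp1 at 1.63 ± 0.44, Nr4a1 at 1.65 ± 0.63 and Jun at 1.43 ± 0.44, none called.

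The mean level of the 24 immediate early genes was -1.43 to -0.87 on the untreated WKY arrays and -0.52 to 0.12 on the SHRSP arrays, without overlap. It was -0.95 to -0.10 in SHR, -0.83 to 0.24 in 2K1C and -1.57 to -0.81 in 1K1C, so the low groups were those on slide 2. The strain cannot be told apart from the slide here either. In RefSeq promoter windows on build GRCr8, from 250 bases before to 50 after the start, 17 of the 24 genes matched. The cAMP response motif TGACGTCA, searched on both strands, was in 5 of them (Btg2, Dusp1, Ier2, Jund and Maff) beside 1.83% of all 33469 windows. The CArG box, the motif of serum response factor, was in 5 (Dusp5, Egr1, Egr2, Klf6 and Zfp36) beside 1.64%. A gene was counted where any of its windows held the motif, whereas the percentages are of single windows. The units are thus unlike. A match is a description of the letters and no sign of binding. The stretches of 120 bases around both motifs are shown for the 2 called members, with the motif in capitals: Btg2 on the minus strand of chr13:48087821-48087940 and Zfp36 on the minus strand of chr1:92799109-92799228, both on GRCr8.
Btg2: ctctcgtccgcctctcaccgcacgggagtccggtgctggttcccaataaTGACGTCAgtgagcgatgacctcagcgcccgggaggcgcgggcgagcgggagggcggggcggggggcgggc
Zfp36: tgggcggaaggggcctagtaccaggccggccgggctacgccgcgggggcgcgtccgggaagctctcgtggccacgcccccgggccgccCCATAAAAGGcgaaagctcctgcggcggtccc

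Matricellular genes, whose secreted products tune the contact of cells with matrix, had the highest median of the pathway lists, 1.17 over 14 measured members, 11 of them above 0. Ccn1, induced by growth factors and stretch, was the called member. Its levels were 0.37, 0.32, -0.35 and 1.53 in untreated WKY and 3.66, 4.16, 4.41 and 2.59 in SHRSP, a rise of 3.24 ± 0.57 (limma adjusted p = 0.0038) that was called whichever array was left out. The means of Ccn1 were 2.14 in SHR, 2.02 in 2K1C and 0.57 in 1K1C. Ccn2, its relative in fibrosis, was at 2.24 ± 0.66, Ccn3 at 2.48 ± 0.76 and osteopontin (Spp1) at 2.66 ± 1.28, while tenascin C (Tnc) was at -2.26 ± 0.75, none of these called.

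In the collagen list 1 of 21 was called, 17 lay above 0 and the median was 0.30. Col4a5, a basement membrane collagen gene, had levels of 0.28, -1.62, -2.02 and -0.16 in untreated WKY and 1.78, 1.21, 1.84 and 1.41 in SHRSP, a rise of 2.44 ± 0.63. It lost its call without untreated WKY arrays 2 or 3 or any 1 SHRSP array (adjusted p up to 0.186). Of 20 elastic fibre genes 0 were called and 6 had an unadjusted p under 0.05 in limma, with a median of 0.43. Elastin (Eln) had levels of 5.84, 2.80, 2.70 and 4.81 in WKY and 6.92, 6.55, 6.41 and 6.51 in SHRSP, a difference of 2.56 ± 0.85 (adjusted p = 0.133). The crosslinking enzyme gene Lox was at 1.85 ± 0.62, and Ltbp1, which binds latent growth factor, at 1.46 ± 0.49. In Eln and Lox untreated WKY arrays 2 and 3 were the low ones. Biglycan (Bgn) was at 1.53 ± 0.52, Adamts1 at 1.36 ± 0.44, Inhba at 2.02 ± 0.67 and Tgfb3 at 1.61 ± 0.53. None of these passed the test, in lists with 0 called of 8 proteoglycans, 17 proteases and inhibitors and 20 transforming growth factor genes (3, 4 and 6 at an unadjusted p under 0.05 in limma).

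The Notch pathway, which signals between endothelium and smooth muscle, had 1 called member of 13, with 10 above 0 and a median of 0.60. Hes1, a target of Notch, had levels of -3.40, -2.92, -3.02 and -3.08 in untreated WKY and -1.32, -1.45, -1.62 and -1.94 in SHRSP, a rise of 1.52 ± 0.21 (limma adjusted p = 0.00048). The means were -2.90 in SHR, -3.32 in 2K1C and -3.19 in 1K1C. Hes1 was thus 1 of the 49 genes in which SHRSP stood outside all 16 other arrays, and it was called against SHR too (1.32, limma adjusted p = 0.0047). The other target genes Hey2 and Heyl were at 1.62 ± 0.75 and 1.20 ± 0.54, the receptor Notch3 at 0.77 ± 0.34 and the ligand Jag1 at 0.66 ± 0.28, none called and all with overlapping groups.

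Cell cycle genes lay above WKY for 29 of 31 measured members, with a median of 0.68, 2 called and 20 at an unadjusted p under 0.05. The shares over all tested genes were 2.39% called and 16.7% at such a p. The mitotic kinase gene Plk1 rose by 0.83 ± 0.21 and Cdc20, an activator of the anaphase complex, by 0.62 ± 0.14. Their groups overlapped, at -2.32 to -1.48 against -1.54 to -0.90 for Plk1 and -2.18 to -1.59 against -1.61 to -1.18 for Cdc20. Plk1 was called only with all arrays or without untreated WKY array 4 (adjusted p up to 0.175), and Cdc20 lost its call without untreated WKY arrays 1, 2 or 3 or SHRSP arrays 1, 2 or 3 (up to 0.114). Rrm2, which makes deoxynucleotides, was at 1.45 ± 0.45 and Kif20a at 1.15 ± 0.37, both uncalled. The mean level of the list was -2.67 to -1.92 in untreated WKY, -2.06 to -1.47 in SHRSP and -2.84 to -2.14 in SHR. It was -2.23 to -1.30 in 2K1C and -2.11 to -1.48 in 1K1C, so both clipped WKY groups overlapped SHRSP.

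The arteries carried the markers of their wall. Of 17 contractile smooth muscle genes 0 were called and 1 had an unadjusted p under 0.05 in limma, with 13 above 0 and a median of 0.41. Smooth muscle myosin (Myh11) ran from 5.02 to 6.34 in WKY and from 5.63 to 6.77 in SHRSP, and Tagln from 5.09 to 5.72 and from 5.68 to 6.92. Acta2 was at 0.98 ± 0.61 and Lmod1 at 1.55 ± 0.71 (0.46 ± 0.62 on its other probe). Of 17 endothelial genes 14 lay above 0, with a median of 0.38, and Erg, a transcription factor of endothelium, was called. Erg rose by 1.05 ± 0.27, from 0.81 to 1.78 in WKY to 1.84 to 2.34 in SHRSP, and was called only with all arrays or without untreated WKY array 4 (adjusted p up to 0.161). It also lost its call with quantile normalization. Pecam1 was at 0.89 ± 0.28 and uncalled. Fewer cells of a type and less RNA per cell cannot be told apart in such whole-tissue samples.

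Of channel genes, the polycystin cation channel Pkd2 was called among 28 calcium genes, with a median of 0.19 in the list. It ran from -3.04 to -2.79 in untreated WKY and from -1.75 to -1.33 in SHRSP, a rise of 1.36 ± 0.32, with an SHR mean of -1.73. Pkd2 was called only with all arrays or without untreated WKY array 4 (adjusted p up to 0.0947). Kcnmb2, a regulatory subunit of the large-conductance potassium channel, was called among 18 potassium channel genes. Its levels ran from -4.53 on array 1 to -0.76 on array 3 in untreated WKY and were -5.33 to -4.54 in SHRSP, a fall of 2.51 ± 0.62 that lost its call without untreated WKY arrays 2 or 3 or any 1 SHRSP array (adjusted p up to 0.148). The smooth muscle subunit Kcnmb1 was at 1.17 ± 0.73 and Kcnq1 at 2.17 ± 0.72, uncalled.

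Among 18 adrenergic and purinergic receptor genes Adra1b, a receptor through which noradrenaline contracts vessels, was called. It rose by 0.81 ± 0.21, from -3.14 to -2.38 in untreated WKY to -2.26 to -1.73 in SHRSP, and was called only with all arrays or without untreated WKY array 4 (adjusted p up to 0.19). P2rx1, an ATP-gated channel of smooth muscle, was at 2.85 ± 1.17 and uncalled, with low values on untreated WKY arrays 2 and 3. Of 14 regulators of G-protein signalling, Rgs11 rose and Rgs10 fell, by 0.97 ± 0.24. Rgs10 lost its call without untreated WKY arrays 1, 2 or 3 or SHRSP arrays 1, 2 or 3 (adjusted p up to 0.144). In the dystrophin complex Sgca was the called member of 14, and the other sarcoglycans lay between -0.54 and 0.26. Connexin genes gave 0 calls of 6 and 2 at an unadjusted p under 0.05 in limma, with Gja4 at 0.96 ± 0.46 and Gjb2 at 1.76 ± 0.79.

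**Figure D3:**
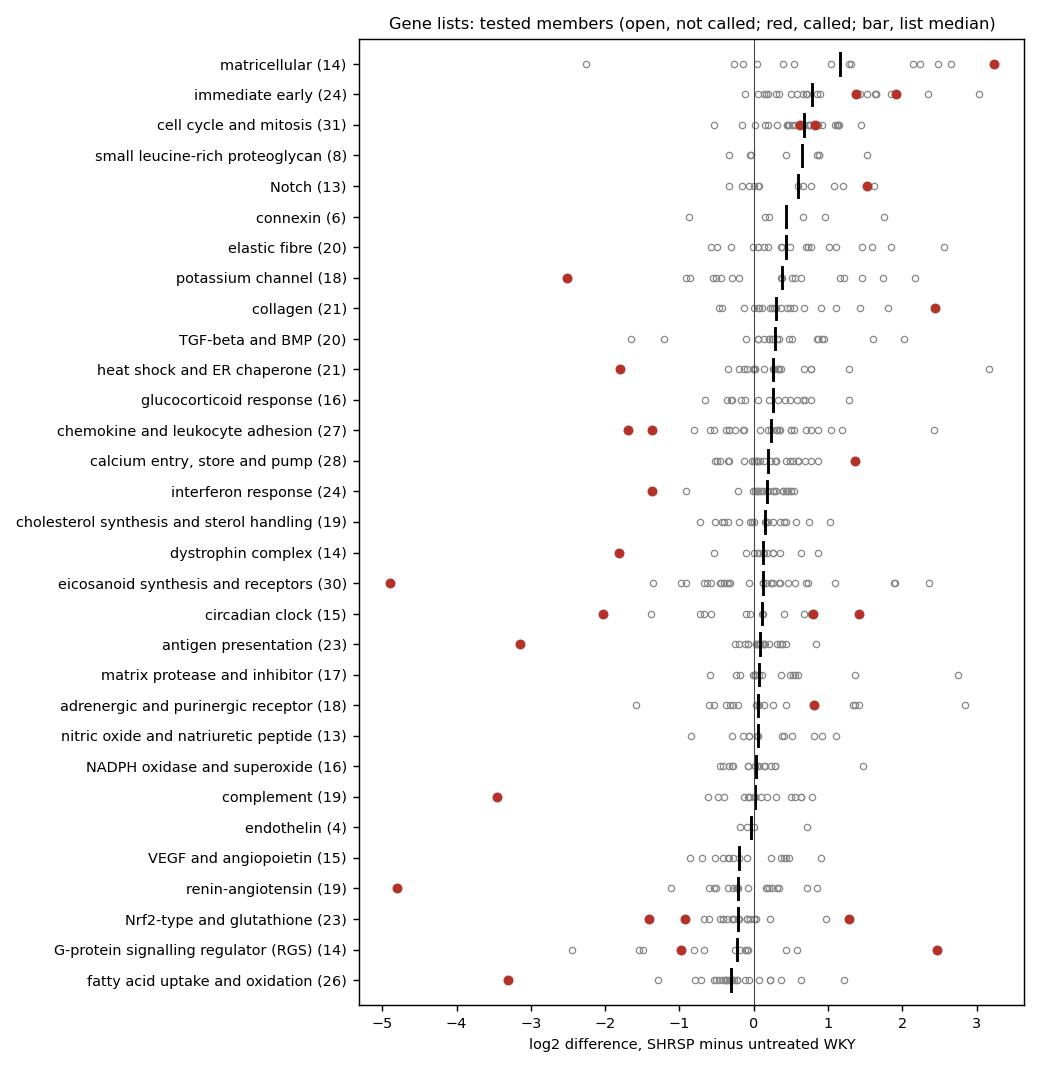
Log2 difference (horizontal axis, SHRSP minus untreated WKY) of every tested member of 31 pathway lists, with the number tested in brackets; open points were not called, red points were, and bars are list medians. The medians run from -0.31 for fatty acid uptake and oxidation to 1.17 for matricellular genes, and the red points farthest from 0 are Ephx2 and Agtrap.

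Genes of neurons were lower in SHRSP for 12 of 12 measured markers, with a median difference of -2.75, 3 called and 9 at an unadjusted p under 0.05. Among all tested genes 2.39% were called and 16.7% had such a p. Peripherin (Prph), an intermediate filament of peripheral nerve, had levels of 4.85, 1.57, 2.52 and -0.80 in untreated WKY and -1.12, -1.47, -1.72 and -1.60 in SHRSP, a fall of 3.51 ± 0.85. The growth cone gene Gap43 ran from 3.33 on untreated WKY array 1 to -1.57 on array 4, and from -2.40 to -2.17 in SHRSP. The splicing factor gene Rbfox1 fell by 3.82 ± 0.73. Of the genes with the largest called falls, the synaptic vesicle gene Syp (at least 11.3-fold lower), Rtn1 (-3.01 ± 0.52), Snph (-2.94 ± 0.67) and the galanin receptor gene Galr2 (-2.81 ± 0.42) had untreated WKY array 4 as the lowest of the 4 WKY arrays. In Dleu7 (-3.16 ± 0.82) array 1 was highest, at 1.35, and array 4 lowest, at -4.28.

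The mean level of the neuron list was 3.92, -0.75, -0.16 and -2.35 on untreated WKY arrays 1 to 4 and -2.67 to -2.41 on the SHRSP arrays. It was -3.27 to -2.12 in SHR, -2.68 ± 0.25 (SD, n = 4) in 1K1C and -2.88 to -2.13 on 3 arrays of 2K1C, with 0.94 on the other. The spread thus lay in untreated WKY and 1 array of 2K1C. Th, the rate-limiting enzyme of noradrenaline synthesis, was at 5.18 on untreated WKY array 1 and between -1.44 and -1.22 on the 3 other WKY and 4 SHRSP arrays. Of the 20 listed neuron markers 8 were not tested, because no group had them well above background on all 4 arrays. Among them were Elavl3, Elavl4, Snap25, Dbh, Phox2a, Syt1 and Nefl, which may still have been above background on single arrays. The part of nerve tissue in these falls was not tested. Without untreated WKY array 1 and SHRSP array 4 the list's median was -1.57. Prph, Snph and Syp were called only with all arrays or without untreated WKY array 4 (adjusted p up to 0.116, 0.102 and 0.122). Gap43 and Dleu7 lost their call without untreated WKY arrays 2 or 3 or any 1 SHRSP array (up to 0.0879 and 0.123), whereas Rbfox1, Rtn1 and Galr2 were called whichever array was left out.

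Markers of other tissues also differed between single arrays. The brown adipocyte list had a mean level of 0.69 on untreated WKY array 1 and -4.26 to -3.01 on the 7 others, and its best-known member Ucp1, which uncouples respiration, was at 6.43 on that array. None of its 6 members was called (2 at an unadjusted p under 0.05 in limma), and the difference of Ucp1 was -2.59 ± 2.31. Mesothelial markers were high on untreated WKY arrays 2 and 3, at -0.27 and -1.23, against -4.07 to -2.98 on the other 6 arrays; Upk1b was at -3.06 ± 1.59 (-0.86 ± 0.58 on its other probe) and Msln at -2.41 ± 1.81. Lymphocyte markers were at 0.30 on SHRSP array 4 and from -5.09 to -2.74 on the 7 other arrays, with Cd3g at 2.10 and Cd3d at 2.38 on that array. Pancreatic enzyme genes ran from -6.02 on untreated WKY array 3 and -5.44 on SHRSP array 4 to 1.32 on SHRSP array 2, and Prss1 was at 1.91 ± 1.95. All 12 of them lay above 0 with 0 called (0 at an unadjusted p under 0.05 in limma), and their median of 0.94 became -0.31 without untreated WKY array 3.

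White adipocyte genes were below 0 for 12 of 13, with a median of -0.41 and 0 called (2 at an unadjusted p under 0.05 in limma); Cidec was at -1.17 ± 0.53 and Pparg at -1.04 ± 0.46. Schwann cell genes were lowest on untreated WKY arrays 2 and 3, at -1.38 and -1.68, with 0 of 11 called and 1 at an unadjusted p under 0.05 in limma. Their marker Cdh19 was at 1.73 ± 0.94. Macrophage genes had a median of -0.27 over 12, with Adgre1 at -0.54 ± 0.46 and Msr1 at -0.51 ± 0.19. Lymphatic genes had 0 called of 6 and 1 at an unadjusted p under 0.05 in limma, with Flt4 at 0.90 ± 0.44 and Reln at 0.90 ± 0.57. Striated muscle genes gave Ckm at 1.76 ± 0.96 and Tnnt2 at -1.71 ± 0.85. No group had 6 of the 13 listed well above background on all 4 arrays.

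**Figure D4:**
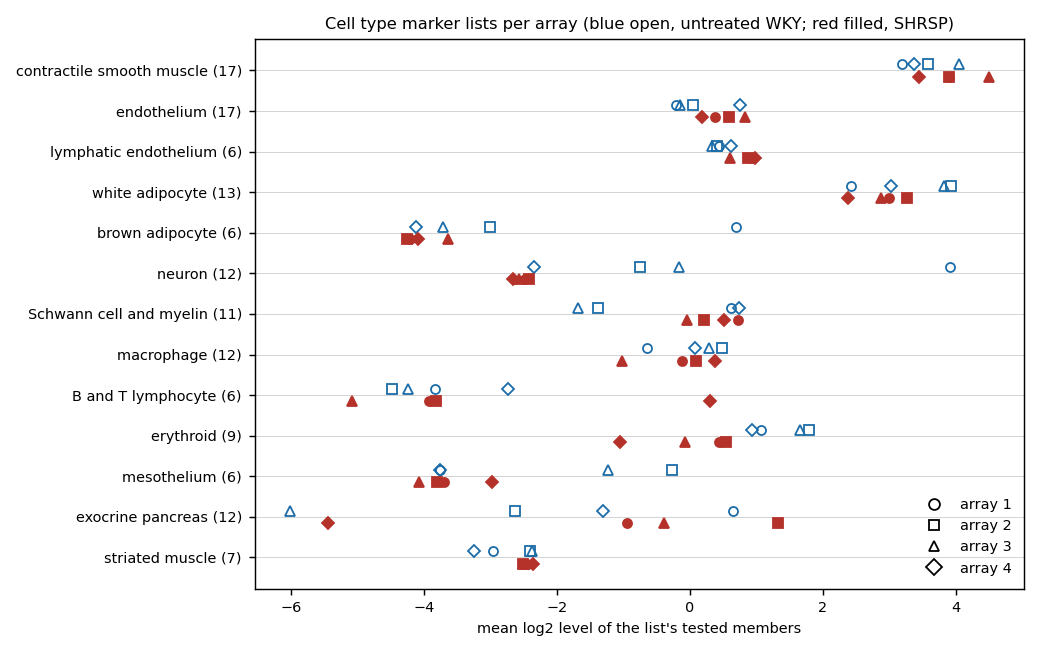
Mean log2 level (horizontal axis) of the tested members of 13 cell type marker lists on each of the 4 untreated WKY arrays (blue, open) and 4 SHRSP arrays (red, filled), with a symbol per array. Untreated WKY array 1 stands apart for neuron (3.92) and brown adipocyte genes (0.69), and SHRSP array 4 for lymphocyte genes (0.30).

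Of 23 glutathione and Nrf2-type genes, which handle oxidants and electrophiles, 19 lay below 0, with a median of -0.22. Srxn1, which repairs oxidised peroxiredoxins, had levels of 0.93, 0.51, 0.19 and 0.27 in untreated WKY and -1.04, -0.32, -0.94 and -1.43 in SHRSP, a fall of 1.41 ± 0.26 (limma adjusted p = 0.00656) that was called whichever array was left out. Gsta4 fell by 0.93 ± 0.23 and was called only with all arrays or without untreated WKY array 4 (adjusted p up to 0.137); it was also uncalled when arrays were scaled by their median. The glutathione transferase gene Gstt3 rose by 1.28 ± 0.27 on its brighter probe and 1.21 ± 0.30 on the other, from -2.16 to -0.96 in WKY to -0.51 to 0.16 in SHRSP, with an SHR mean of -0.13. Gstt3 lost its call without untreated WKY arrays 2 or 3 or SHRSP arrays 1 or 2 (adjusted p up to 0.0713), and its neighbour in function Gstt1 was at 0.98 ± 0.28. Of the NADPH oxidase list 0 of 16 were called and 1 had an unadjusted p under 0.05 in limma, and Noxo1 was at -0.45 ± 0.27.

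Clock genes, whose levels cycle through the day, gave 3 calls of 15, beside 2.39% of all tested genes. An unadjusted p under 0.05 in limma was reached by 10 of the 15, beside 16.7% of all genes. Nr1d1, a repressor of the clock, fell by 2.03 ± 0.44, from -3.70 to -1.01 in untreated WKY to -4.93 to -4.11 in SHRSP. Nfil3 rose by 1.41 ± 0.33 and Npas2 by 0.80 ± 0.20. The second probe of Npas2 gave 0.016, so its call rests on a single probe. Dbp was at -1.38 ± 0.42 and Bmal1 at 0.67 ± 0.28, uncalled. The time of day of sampling is not given in the sources used here. Nr1d1 lost its call without untreated WKY arrays 2 or 3 or SHRSP array 4 (adjusted p up to 0.0771), Nfil3 without untreated WKY arrays 2 or 3 or SHRSP arrays 3 or 4 (up to 0.122), and Npas2 was called only with all arrays or without untreated WKY array 4 (up to 0.133).

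Of the immune lists, 1 of 24 interferon, 1 of 23 antigen presentation, 1 of 19 complement and 2 of 27 chemokine genes were called, all lower in SHRSP. Over all tested genes 2.39% were called and 1.24% were called lower, so these few calls describe single genes and not the lists. The chemokine list had a median of 0.23. The interferon-induced chemokine gene Cxcl9 had levels of -1.52, -1.09, -1.71 and -1.29 in untreated WKY and -2.47, -2.61, -3.48 and -2.55 in SHRSP, a fall of 1.38 ± 0.26 (limma adjusted p = 0.00722) with an SHR mean of -2.56, called whichever array was left out. The other 23 interferon-response genes were not called, and the list's median was 0.18. Ccl11, which attracts eosinophils, fell by 1.69 ± 0.41, a call that was lost without untreated WKY arrays 1, 2 or 3 or SHRSP arrays 1, 3 or 4 (adjusted p up to 0.147). The adhesion molecule gene Vcam1 was at 1.18 ± 0.32 and Ccl19 at 2.43 ± 0.97, both uncalled. Of 23 antigen presentation genes Micb alone was called, with a median of 0.08 over the list, and of 19 complement genes C4bpa alone, with a median of 0.011.

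In the remaining lists, the small heat shock protein gene Hspb8 fell by 1.80 ± 0.39, from -1.59 to 0.80 in untreated WKY to -2.46 to -1.67 in SHRSP, and lost its call without untreated WKY arrays 2 or 3 or SHRSP arrays 1 or 4 (adjusted p up to 0.0794). The inducible Hspa1b was at 3.17 ± 0.86, uncalled, with untreated WKY array 1 at 1.90 within the SHRSP range of 1.55 to 4.42. Fatty acid genes lay below 0 for 20 of 26, with a median of -0.31 and Acot5 called; the muscle carnitine transferase gene Cpt1b was at -1.29 ± 0.47, uncalled. Glucocorticoid-response and sterol genes gave 0 calls of 16 and 19 (2 and 5 at an unadjusted p under 0.05 in limma), with Errfi1 at 1.29 ± 0.42, Per1 at 0.77 ± 0.63 and Idi1 at 0.74 ± 0.32. Vascular growth factor genes gave 0 of 15 (2 at an unadjusted p under 0.05 in limma), with Apln at -0.86 ± 0.36.

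The remaining called genes with large differences were of other kinds. Scube3 was at least 2.46-fold and Tmem82 at least 3.26-fold higher in SHRSP, neither being well above background in untreated WKY, and the zinc finger gene Zfp296 at least 4.80-fold higher. Slc25a34, a mitochondrial carrier gene, rose by 2.28 ± 0.46. Zfp296 lost its call without untreated WKY arrays 2 or 3 or SHRSP array 4 and Slc25a34 without untreated WKY array 3 or SHRSP array 3 (adjusted p up to 0.0578 for both). Scube3 lost its call without untreated WKY arrays 2 or 3 or SHRSP arrays 1, 2 or 3 (up to 0.0924), and Tmem82 without untreated WKY arrays 2 or 3 or any 1 SHRSP array (up to 0.152). Of the 16414 genes tested, 26 were well above background on all 4 SHRSP arrays and on no untreated WKY array, 15 of them called. The other way round there were 22, 15 of them called. Both sets were picked by the group difference that the calls test. Some members differed little, such as Atxn3 at 0.29 ± 0.24 and Arid5b at 0.31 ± 0.43, uncalled and with overlapping groups. Gas2, a gene of the cytoskeleton, was in the set of 22, at least 2.91-fold lower, with an SHR mean of -5.77 beside the SHRSP levels of -5.68 to -5.48.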

How the data were processed

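Each of the 20 arrays was a 1-colour Agilent rat array of 62976 spots (4259 of them controls), and the submitters' processing notes name Agilent Feature Extraction 10.7.3.1 as its software, with probe positions of build rn4 per the file headers. The authors deposited the processed signal intensity of each spot, corrected for background by the scanner software per the file headers. The value table the authors deposited holds the same signals unscaled, and its log2 was used as an alternative. From the processed signals, log2 was taken per spot, spots flagged as outliers were left out and the spots of a probe were averaged. The log2 of the 75th percentile of the non-control spots was then subtracted for each array.

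Of 30367 probes, 18809 (61.9%) were named through RefSeq. Testing was limited to the 18899 probes that the scanner marked as above background throughout (4 of 4 arrays) in 1 or more groups, and the brightest probe stood for a gene. limma 3.58.1 in R 4.3.3 was fitted over all 5 groups of 4 with moderated variances (15 residual and 2.57 prior degrees of freedom) and two-sided tests. Where a group was not above background on any array, "at least" folds compare the brighter group's mean with the higher, per array, of the probe's own signal and that array's dimmest signal still marked as above background. No p-value was taken from the authors. The fit was tested on simulated data with independent noise, without a slide effect or arrays that stood apart. That test therefore cannot speak to these features of the real arrays. The genes described were the 20 largest called differences in each direction with a symbol, groups that did not overlap and the brighter group above background on all 4 arrays, up to 6 called members (or 2 uncalled) of each of 44 lists, and the measured renin-angiotensin genes, apart from some genes that are not reported here. All others were chosen after their values were seen. Of 819 listed names 696 were tested. The members and lists were chosen with earlier results of these data known. The alternatives were other normalizations and background corrections, filters, probe summaries, fits and left-out arrays. The fit without untreated WKY array 1 and SHRSP array 4 was chosen after seeing the data.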

Additional observations from a re-analysis of the deposited data

Results flagged for a closer look

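Single arrays stood apart from the other 3 of their group in 10 of 229 groups of levels tested with Dixon's criterion, which chance alone reaches in about 5% of groups. On untreated WKY array 1, Apln was at -0.32 (others 0.84 to 0.96), Cox8b, a subunit of muscle and brown fat cytochrome oxidase, at 4.90 (others -5.38 to -4.00) and Agtrap at -0.34 (others 0.23 to 0.34). Rgs10 was at 1.63 on untreated WKY array 4 (others 2.69 to 2.86).

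Among the SHRSP arrays, Agtr1a was at 0.24 on array 2 (others -0.27 to -0.21). Array 3 was low for Anpep at -2.84 (others -2.18 to -2.10), Adgre1 at -2.99 (others -1.62 to -1.39) and Cxcl9 at -3.48 (others -2.61 to -2.47). Array 4 was low for Pip at -4.74 (others -4.26 to -4.18) and Nr1d1 at -4.93 (others -4.17 to -4.11).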

How the results depend on the processing

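The count of 393 genes against untreated WKY and of 59 against SHR fell to 207 and 39 on the deposited value table without scaling, where the split against WKY was 143 higher and 64 lower (69.1% higher, beside 48.1%) and the median of all genes was 0.17. With the 2 groups fitted alone the counts were 161 and 39, and with array weights 5533 and 881. Probes above background on all 8 arrays gave 31 against SHR. Without untreated WKY array 1 and SHRSP array 4 there were 255 against WKY, 215 of them among the 393. Leaving out 1 array gave 172 to 910 against WKY and 38 to 55 against SHR. The cause was not tested. The other alternatives kept both counts within 1.5 times. With the replicate number as a block the counts were 364 (319 shared with the 393) and 51. Deviations of same-numbered SHRSP and WKY arrays correlated at 0.134, 0.229, 0.025 and 0.094, each the highest value for its WKY array. The other pairs ran from -0.146 to 0.037, and SHRSP array 3 correlated higher with WKY array 2 than with WKY array 3. The replicate number was also the column of the array on its slide. The main fit left the numbers unpaired, and what lay behind these correlations was not tested.

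Of 58 called genes chosen by rule, 0 changed direction under the alternatives run; the filter on all 8 arrays kept only 30 of the 58. The block lost 10 calls, the unscaled deposited values 16, no filter 15, the 2 groups alone 30 and array weights 0. Of the 58, 30 were called whichever array was left out. With 4 arrays a group, probes near background allow only bounds.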
